A study of Mus musculus with 64 samples.

Results

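The day-night difference in epididymal white adipose tissue (eWAT) of fat-specific Nampt knockout (FANKO) mice was measured by comparing 4 eWAT samples taken at ZT6, the middle of the light phase, with 4 taken at ZT18, the middle of the dark phase. These 8 libraries, of 64 in the series, were chosen by their labels alone, and all 20249 genes that passed a filter on low counts, of 52636 in the table, were described. The mice were male young adults kept on chow, with food at all times and lights switched on at ZT0. FANKO mice carried the Nampt tm1Jtree allele, in which exon 3 is flanked by loxP sites, together with Adiponectin-Cre, and the WT controls were littermates without Cre. Adiponectin-Cre acts in mature adipocytes, so the endothelial, stromal and immune cells of the tissue kept the gene, and a whole-tissue library mixes their RNA with that of the adipocytes. Levels are given as CPM, a gene's count as a share of the scaled library total. Total counts of the 8 libraries ran from 14026228 to 22296636, and Pearson's r of log2 CPM between any pair of them ran from 0.965 to 0.988. Genes of the mitochondrial genome took 6.53 to 10.95% of the counts at ZT6 and 8.11 to 14.6% at ZT18. The adipocyte markers were abundant in every one, with summed levels of 14500 to 17110 CPM at ZT6 and, without overlap, 17330 to 19890 CPM at ZT18.

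NAMPT is the rate-limiting enzyme of the salvage pathway that rebuilds NAD from nicotinamide. NAD is a cofactor of redox reactions and the substrate of sirtuins, which act on the molecular clock, and Nampt itself is a target of that clock. The clock is a loop in which the activators CLOCK and BMAL1 (gene Arntl) drive the Per, Cry and Nr1d repressors, and in adipose tissue it runs beside the rhythm of feeding, since mice eat mainly in the dark. Interferon-stimulated genes are a separate programme: interferons, released when cells sense foreign or misplaced nucleic acid, act through a transcription factor complex that includes IRF9 on a short promoter element and raise a shared set of antiviral genes.

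In FANKO eWAT 860 genes differed between ZT18 and ZT6 at an adjusted p below 0.01 (edgeR quasi-likelihood test, Benjamini-Hochberg over all genes tested), or 4.25% of those tested. Of these, 347 were higher at ZT18 (1.71%) and 513 were lower (2.53%). A gene past that threshold is termed called, and each change is ZT18 minus ZT6. The median change over all genes tested was -3e-04 on the log2 scale. Among the called genes 361 changed by more than 2-fold, 105 upward and 256 downward. Protein-coding genes made up 317 of the genes that were higher and 442 of those that were lower. The count fell to 512 without ZT6 replicate 3, and without ZT18 replicates 1 and 4, which had the largest summed germ cell markers of their group, it fell to 322. No other pair of libraries was left out. The effect of fewer libraries and that of germ cell content therefore cannot be told apart, here or where this setting is used below. With library size alone as the scaling it was 508, of which 150 were higher and 358 lower.

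The same comparison in WT eWAT called 606 genes (2.99%), 448 higher (2.21%) and 158 lower (0.780%). With library size alone as the scaling the WT count was 278, of which 125 were higher and 153 lower, and in a fit of the compared libraries alone it was 6. It was 243 without WT ZT6 replicate 2 and 275 without WT ZT18 replicate 3. The genes called in both genotypes numbered 122, which is 14.2% of the FANKO calls and 20.1% of the WT calls, and 118 of them moved the same way. A further 738 genes were called in FANKO only, but 574 of these moved the same way in WT by estimate. The change itself differed between the genotypes for 67 genes (0.331%), and 43 of the 738 were among them. The count of 67 became 12 in a fit of the compared libraries alone and 24 with the mean log2 CPM of the epididymis markers as a covariate. It became 33 with library size alone as the scaling and 30 without FANKO ZT18 replicates 1 and 4. For 60 of the 67 the change was more negative in FANKO than in WT, and 48 of the 67 had a negative change in FANKO and a positive one in WT by estimate. One WT library at ZT18, replicate 4, stood apart from its group for many genes described here, for example with Ppp1r3b at 20.03 CPM against 182 to 217 CPM in the other 3. Without it 169 genes had a called difference, 39 of the 738 became called in WT, and 84 of the 738 had a called difference in place of 43. The plot of the change in FANKO against the change in WT shows both patterns.

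**Figure D1:**
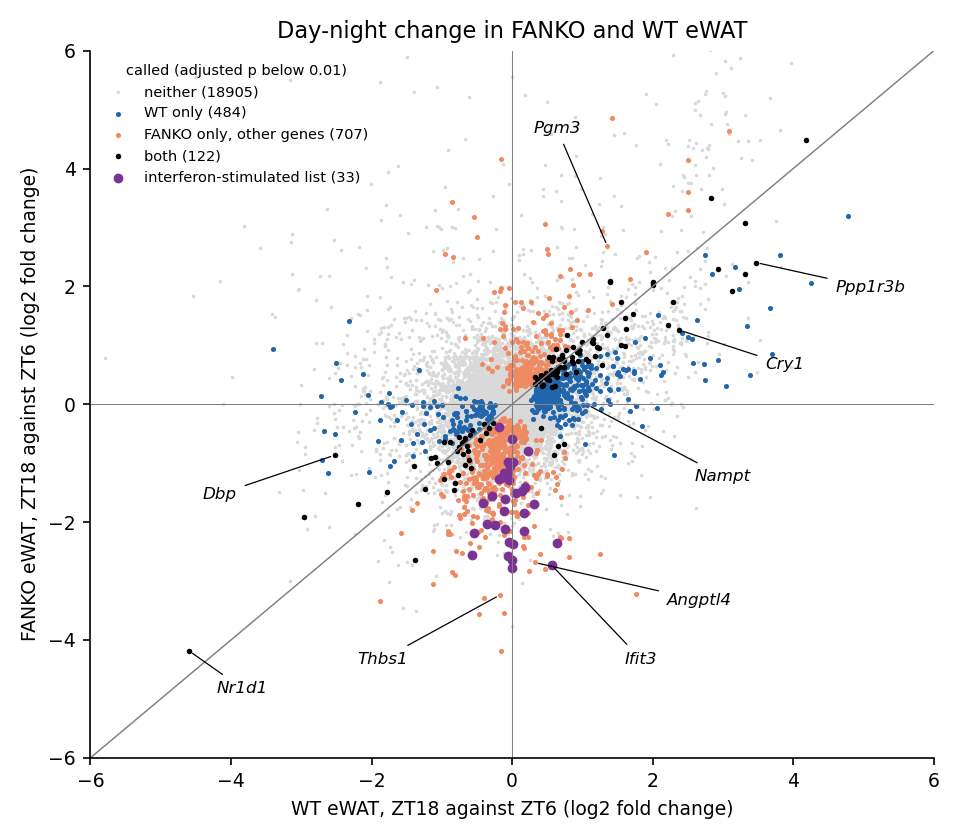
Log2 fold change from ZT6 to ZT18 of each gene tested in WT eWAT (x axis) and FANKO eWAT (y axis), 4 libraries per group, with the diagonal marking equal change and 30 genes beyond the axis limits of 6 left out. The 33 interferon-stimulated genes lie below 0 in FANKO and around 0 in WT, while Nr1d1 lies near the diagonal.

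Nampt (ENSMUSG00000020572, chr12:32819545-32853349, + strand, GRCm38) showed no called day-night change in FANKO eWAT. Its level was 112, 118, 124 and 112 CPM at ZT6 and 114, 108, 125 and 118 CPM at ZT18 in FANKO. The 2 groups overlapped throughout, and the fitted change was -0.01 ± 0.13 (log2, SE; adjusted p = 0.994, edgeR). In WT the level was 112, 116, 130 and 119 CPM at ZT6 and 310, 180, 262 and 250 CPM at ZT18, so that every WT library at ZT18 was above every other one of these. The WT change was 1.07 ± 0.13 (log2, SE; adjusted p = 2.03e-07, edgeR), and the difference between the changes, -1.08 ± 0.19, was called (adjusted p = 0.000697, edgeR). Between the genotypes, mean log2 CPM differed by -0.03 at ZT6 (two-sided exact permutation test, 4 against 4, p = 0.657) and by -1.08 at ZT18 (p = 0.0286, the smallest that 4 against 4 allows, and 0.0571 adjusted over the 2 time points). With library size alone as the scaling the ZT6 difference was -0.30 with an exact permutation p of 0.0286. The counts cover all exons of the gene, not exon 3 on its own, and include RNA of cells that do not express the Cre, so the level at ZT6 is no check of the deletion.

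The core clock kept a day-night difference in FANKO eWAT. Of 6 clock activators tested 2 were higher and none lower, of 11 repressors 4 were higher and 3 lower, and of 11 output factors 3 were higher and 1 lower. In WT the counts were 2 higher, 3 higher with 2 lower, and 5 higher with 1 lower. Of all genes 1.71% were higher and 2.53% lower in FANKO, and 2.21% and 0.780% in WT. Nr1d1 (chr11:98767932-98775333), which encodes the repressor REV-ERB alpha, was at 65.1, 78.7, 50.8 and 53.1 CPM at ZT6 and at 3.09, 2.91, 3.64 and 3.98 CPM at ZT18, the largest decrease among protein-coding genes that met the rule for naming. Its change was -4.19 ± 0.28 (log2, SE; adjusted p = 2.55e-16, edgeR) in FANKO and -4.60 ± 0.28 in WT, and its exons overlap those of Thra on the other strand by 263 bases. Its paralog Nr1d2 fell by 1.48 in FANKO and by 1.78 in WT on the log2 scale. Per2, a repressor of the negative limb, rose from 7.85, 14.8, 12.5 and 10.7 CPM at ZT6 to 30.9, 41.9, 37.4 and 42.9 CPM at ZT18, a change of 1.73 ± 0.29 (log2, SE; adjusted p = 3.33e-05, edgeR). Nfil3, a repressor of D-box genes, rose by 2.30 ± 0.28 in FANKO and by 2.93 ± 0.29 in WT (log2, SE). Neither difference between the genotypes was called (adjusted p = 0.901 for Per2 and 0.520 for Nfil3, edgeR).

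For 2 clock genes the change in FANKO was called as smaller than in WT. Cry1, a core repressor, was at 13.2, 12.4, 15.5 and 15.4 CPM at ZT6 and 32.3, 39.3, 30.3 and 33.8 CPM at ZT18 in FANKO, and at 5.63, 6.33, 4.02 and 4.68 CPM at ZT6 and 23.9, 30.0, 29.9 and 25.2 CPM at ZT18 in WT. The FANKO libraries at ZT6 were all above the WT libraries at ZT6, and at ZT18 the FANKO libraries were again above, by a smaller ratio. The Cry1 change was 1.26 ± 0.14 in FANKO and 2.37 ± 0.15 in WT, and the difference was -1.11 ± 0.20 (log2, SE; adjusted p = 0.000929, edgeR). Dbp, a clock output factor that binds the D-box, was at 25.5, 39.2, 34.7 and 33.3 CPM at ZT6 and 18.2, 18.04, 22.9 and 13.6 CPM at ZT18 in FANKO, while WT fell from 40.9, 41.6, 44.5 and 34.9 CPM to 9.26, 5.83, 7.89 and 5.26 CPM. The Dbp groups did not overlap in either genotype, and the WT libraries at ZT18 were all below the FANKO ones. Its change was -0.86 ± 0.22 in FANKO and -2.52 ± 0.23 in WT, with a difference of 1.66 ± 0.32 (log2, SE; adjusted p = 0.00164, edgeR). The FANKO call of Dbp was lost when any of 6 of the 8 libraries was left out, ZT18 replicates 1, 2 and 4 and ZT6 replicates 2, 3 and 4 (adjusted p up to 0.0421, edgeR).

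Arntl rose by 0.99 ± 0.23 in FANKO and 1.61 ± 0.24 in WT (log2, SE). The difference of -0.62 was not called (adjusted p = 0.4225, edgeR). The FANKO call of Arntl was lost without ZT18 replicate 1 or ZT6 replicate 2 (adjusted p up to 0.0183, edgeR). It was also lost with library size alone as the scaling, with the epididymis covariate and without ZT18 replicates 1 and 4 (adjusted p up to 0.0646, edgeR). Bhlhe40, a repressor that competes at E-boxes, was at 53.8, 81.3, 69.5 and 53.3 CPM at ZT6 and 127, 186, 148 and 184 CPM at ZT18 in FANKO. In WT it was at 66.5, 52.9, 75.7 and 61.5 CPM at ZT6 and 63.3, 87.7, 71.3 and 16.8 CPM at ZT18, with the lowest value in replicate 4. The Bhlhe40 change was 1.32 ± 0.31 in FANKO (log2, SE; adjusted p = 0.00312, edgeR), and the difference from WT was 1.42 ± 0.44 and was not called (adjusted p = 0.0868). That FANKO call was lost without ZT18 replicate 2 or 4 or ZT6 replicate 1, 3 or 4, with an adjusted p of up to 0.0181 (edgeR). It was also lost in a fit of eWAT alone and with the epididymis covariate. Usp2, a deubiquitinase with clock-driven expression, rose by 2.10 ± 0.28 in FANKO and 1.39 ± 0.27 in WT (log2, SE). Its difference of 0.71 was not called (adjusted p = 0.4275, edgeR). The promoter of Cry1 is shown because it holds the E-box CACGTG, in capitals, at which CLOCK and BMAL1 bind. It was read from RefSeq (GRCm38.p6) as 250 bases before to 50 bases after the start site.
Cry1 (chr10:85185005-85185304, - strand): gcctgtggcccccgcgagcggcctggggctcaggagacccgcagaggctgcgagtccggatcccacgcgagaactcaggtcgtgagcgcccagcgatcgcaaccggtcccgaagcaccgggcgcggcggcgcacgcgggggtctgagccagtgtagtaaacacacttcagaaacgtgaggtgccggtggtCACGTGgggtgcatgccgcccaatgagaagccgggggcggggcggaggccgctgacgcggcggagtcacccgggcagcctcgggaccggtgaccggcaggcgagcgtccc
The letters CACGTG, which read the same on both strands, occurred in 7.15% of 32851 such windows over all genes. Windows were found for 9 of the 11 repressors, and the letters were present in those of 4, or in 4 of 10 windows.

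**Figure D2:**
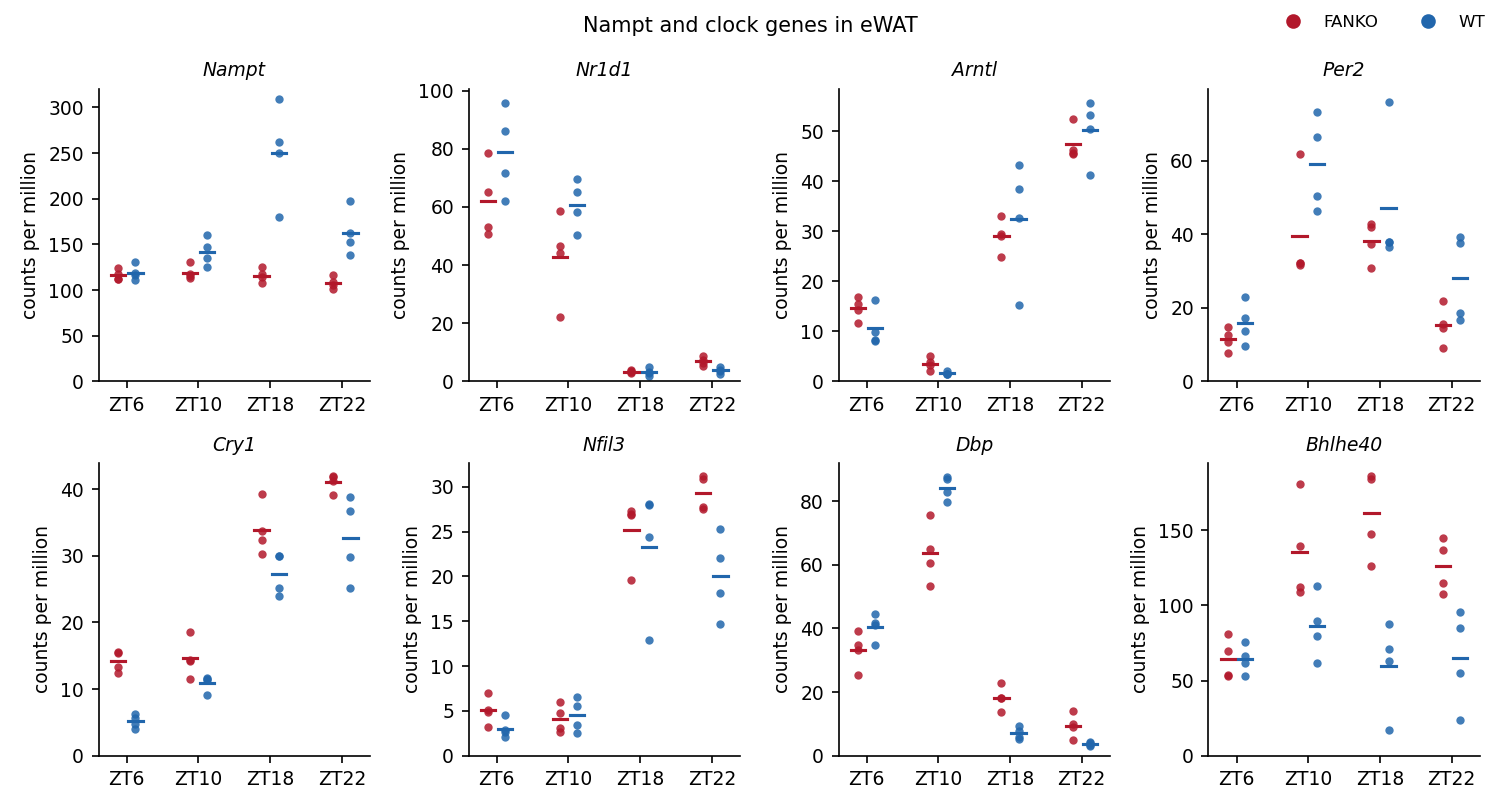
Level (CPM) of Nampt and 7 clock genes at ZT6, ZT10, ZT18 and ZT22 in FANKO (red) and WT (blue) eWAT, with a point for each of 4 libraries and a bar at the mean. Nampt stays between 101 and 131 CPM in all 16 FANKO libraries, and Nr1d1 is lowest at ZT18 in both genotypes.

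The interferon-stimulated list had the largest share of called genes among the lists described. Of its 33 genes tested 31 were called lower at ZT18 in FANKO eWAT, against 2.53% of all genes, with changes from -2.78 to -0.39 and a median of -1.67 (log2). Gbp7 and Irf1 were not called, at -0.59 and -0.39. All 33 had ZT6 and ZT18 libraries that did not overlap, as did 16.4% of all genes tested. In WT eWAT none of the 33 was called (edgeR; 0 at an unadjusted p below 0.05, 0 by DESeq2), and the median change was -0.04. The summed level of the list was 2765, 2026, 4748 and 2344 CPM at ZT6 and 728, 1099, 920 and 1083 CPM at ZT18 in FANKO. In WT it was 486 to 696 CPM at ZT6 and 493 to 699 CPM at ZT18, so that the FANKO libraries at ZT18 lay above the WT range too. The count of FANKO calls was 25 without ZT6 replicate 3, 29 to 31 without any other single library, and 23 without ZT18 replicates 1 and 4.

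The promoters of 3 members are shown because each held a match to the core of the interferon-stimulated response element, which the IRF9-containing complex binds. Capitals mark this core as searched, GAAA, 2 bases of any kind and GAAA again, on either strand. Each is the RefSeq window (GRCm38.p6) of 250 bases before to 50 bases after the start site.
Isg15 (chr4:156200769-156201068, - strand): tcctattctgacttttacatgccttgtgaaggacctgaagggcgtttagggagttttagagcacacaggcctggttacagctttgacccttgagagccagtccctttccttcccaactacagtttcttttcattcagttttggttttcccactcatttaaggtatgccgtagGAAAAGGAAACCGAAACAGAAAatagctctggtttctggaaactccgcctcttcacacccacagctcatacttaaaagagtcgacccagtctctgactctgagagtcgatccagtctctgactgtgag
Ifit3 (chr19:34583279-34583578, + strand): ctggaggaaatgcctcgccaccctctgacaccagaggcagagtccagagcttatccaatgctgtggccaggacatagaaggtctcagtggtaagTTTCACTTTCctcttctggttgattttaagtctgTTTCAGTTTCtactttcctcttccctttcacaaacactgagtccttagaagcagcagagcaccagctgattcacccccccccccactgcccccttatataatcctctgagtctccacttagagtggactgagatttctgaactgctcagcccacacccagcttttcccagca
Rsad2 (chr12:26456403-26456702, - strand): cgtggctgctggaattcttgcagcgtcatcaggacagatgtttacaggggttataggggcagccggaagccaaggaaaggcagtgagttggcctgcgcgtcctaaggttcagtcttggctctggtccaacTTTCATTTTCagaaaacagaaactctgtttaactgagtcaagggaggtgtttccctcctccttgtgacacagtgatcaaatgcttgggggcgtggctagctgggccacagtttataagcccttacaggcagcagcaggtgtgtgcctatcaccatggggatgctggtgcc
In Isg15 3 overlapping matches began 78 bases before the start site, in Ifit3 the first of 2 began 156 bases before it, and in Rsad2 a single match began 120 bases before it. Of the 24 genes of the list with a window 15 held a match. By window, 15 of their 28 (53.6%) held one, against 3.44% of the 32851 windows over all genes. The windows shown were taken from those that held a match, and the 9 other genes had none within these 300 bases.

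Ifit3 (chr19:34583531-34588731), an RNA-binding antiviral protein whose near-identical copy Ifit3b may share its reads, was at 201, 129, 363 and 159 CPM at ZT6 and 17.5, 39.8, 31.2 and 39.9 CPM at ZT18 in FANKO. In WT its range was 10.6 to 14.2 CPM at ZT6 and 6.52 to 26.0 CPM at ZT18. The ZT6 libraries of FANKO were thus all several-fold above the rest, and replicate 3 was the highest. The change was -2.73 ± 0.40 in FANKO (log2, SE; adjusted p = 3.13e-06, edgeR) and 0.56 ± 0.40 in WT (adjusted p = 0.431), and the difference was -3.29 ± 0.56 (adjusted p = 0.000603). Isg15 (chr4:156199424-156200818), a ubiquitin-like modifier, was at 19.3, 15.7, 49.9 and 22.4 CPM at ZT6 and 2.21, 5.12, 4.57 and 6.32 CPM at ZT18 in FANKO. Its change was -2.57 ± 0.37 (log2, SE; adjusted p = 2.05e-06, edgeR). In WT all 8 libraries held at most 2.55 CPM. The difference of -1.99 ± 0.64 was not called (adjusted p = 0.0991, edgeR). Oasl1, a 2'-5'-oligoadenylate synthetase-like protein that restrains Irf7 translation, was at 37.7, 24.3, 75.8 and 30.2 CPM at ZT6 and 2.97, 8.79, 5.32 and 7.45 CPM at ZT18. Its change of -2.78 ± 0.40 (log2, SE) was the most negative of the list. Ifit2 changed by -2.57, Ifit3b by -2.60 and the oligoadenylate synthetase gene Oas3 by -2.64, and together with Slfn4 (-3.29), the myeloid gene Ms4a4c (-3.05), Thbs1, Angptl4 and Nr1d1 these were the 10 protein-coding genes with the largest decrease among called genes whose log2 CPM averaged 1 or more and whose ZT6 and ZT18 libraries were fully separate. Usp18, which removes ISG15 from its targets, changed by -2.35, and Irf7, the regulator that amplifies the response, by -2.11, both called. The signal components Stat2 and Irf9 moved less, each by -0.98 (log2, both called).

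For 9 of the 33 the change was called as more negative in FANKO than in WT (0.331% of all genes were called for this difference in either direction): Bst2, Cmpk2, Ifit2, Ifit3, Irf7, Oasl2, Rsad2, Rtp4 and Usp18. At an unadjusted p below 0.05 the number was 32. This count depended on the fit: DESeq2 called 17 and limma-voom 3, a fit of eWAT alone called 2 and a fit of the compared libraries alone called 0 (against 12 of all genes), and without FANKO ZT18 replicates 1 and 4 there was 1. Leaving out 1 library gave 2 (without FANKO ZT6 replicate 3) to 13 (without WT ZT18 replicate 4). At ZT10 and ZT22, which the comparison did not use, the summed level of the interferon-stimulated list in FANKO was 934, 1938, 2717 and 2862 CPM and 2045, 3060, 3243 and 1265 CPM. The lowest ZT10 library, replicate 1, lay within the ZT18 range, and the ZT22 libraries, except replicate 4, lay within that of ZT6. Between ZT22 and ZT10 none of the 33 was called (edgeR; 7 at an unadjusted p below 0.05, 0 by DESeq2), against 2.51% of all genes. Their median change was 0.16, or -0.04 without ZT10 replicate 1, a library that stood nearer to ZT18 than the rest of its group for many called genes. In FANKO brown adipose tissue (BAT) 1 of the 33, Cmpk2, was called and was higher at ZT18 (by 1.5 ± 0.33, log2, SE; adjusted p = 0.00343, edgeR), where 2.05% of all genes were called, and the median change was 0.54. The difference between the depots was called for 30 of the 33, against 1.08% of all genes. This comparison took the eWAT and BAT libraries as independent, and whether they came from the same animals was not tested.

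**Figure D3:**
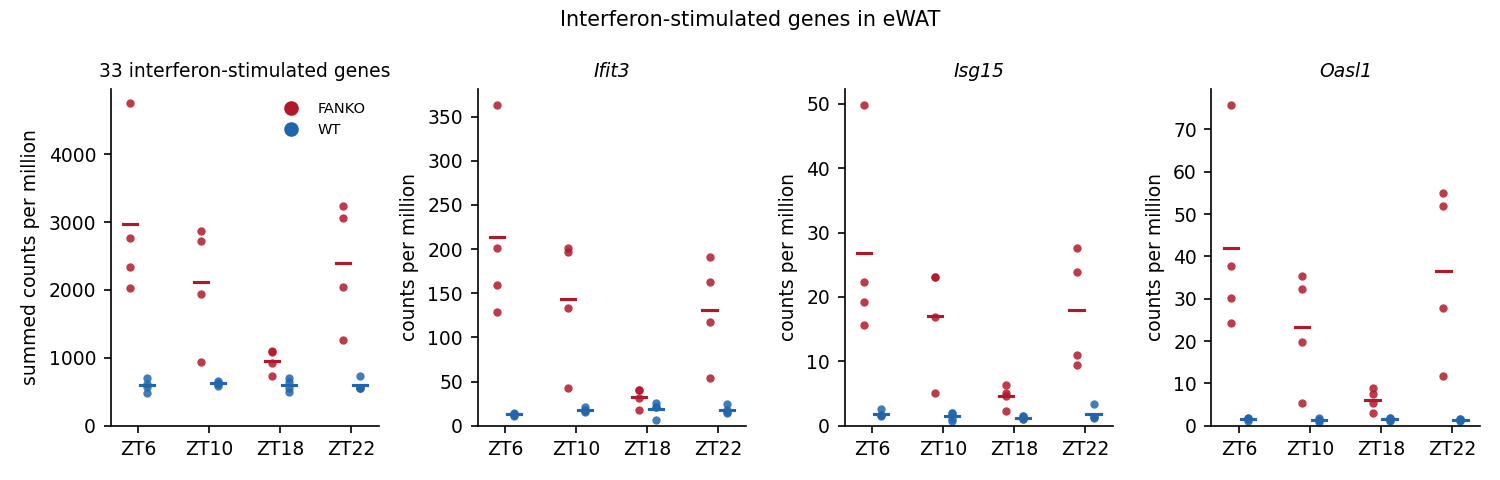
Summed level of the 33 interferon-stimulated genes and levels of Ifit3, Isg15 and Oasl1 (CPM) at each time point in FANKO (red) and WT (blue) eWAT, with 4 libraries per group and a bar at the mean. The FANKO libraries at ZT18, at 728 to 1099 CPM for the list, are below all FANKO libraries at ZT6, while WT stays between 486 and 736 CPM.

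Genes around this programme fell in part. Of 21 antigen presentation genes 7 were called lower and none higher, with a list median of -0.44 (log2), where 2.53% of all genes were lower and 1.71% higher. These were Tap1, a peptide transporter (-1.13 ± 0.20, log2, SE), the class I genes H2-T23, H2-Q4, H2-Q6 and H2-Q7, the immunoproteasome subunit Psmb8 and the class I regulator Nlrc5. H2-Q6, H2-Q7 and Psmb8 lost their call without ZT6 replicate 3, ZT18 replicate 1 or ZT18 replicate 3 (adjusted p up to 0.0758, edgeR), and the H2-Q genes are similar enough to share reads. Of 36 cytokines and chemokines 4 were lower, against the same 2.53%, and none higher. Cxcl10, an interferon-induced chemokine, was at 36.5, 23.9, 69.1 and 22.3 CPM at ZT6 and 3.38, 9.54, 6.49 and 8.97 CPM at ZT18, a change of -2.42 ± 0.40 (log2, SE; adjusted p = 2.32e-05, edgeR). Ccl7 and Ccl2, which draw monocytes, changed by -2.35 and -1.55, and Il6 by -3.55 at no more than 0.794 CPM in any of the 8 libraries. Ccl2 lost its call without any 1 of 6 libraries (all of ZT18, and ZT6 replicates 1 and 3, adjusted p up to 0.144) and Il6 without ZT18 replicate 3 or ZT6 replicate 3. Slfn4, a myeloid gene of the Schlafen family, was at 19.03, 11.1, 66.7 and 13.7 CPM at ZT6 and 1.80, 3.37, 3.13 and 3.09 CPM at ZT18. No difference between the genotypes was called in either list (edgeR; 10 of 21 and 11 of 36 at an unadjusted p below 0.05, 0 and 0 by DESeq2).

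Markers of immune cells were not called. Of 15 macrophage markers none was called (edgeR; 8 at an unadjusted p below 0.05, 0 by DESeq2), 13 were below 0, and their summed level was 1062 to 1624 CPM at ZT6 and 955 to 1237 CPM at ZT18. Of 16 T and NK cell markers none was called (edgeR; 5 at an unadjusted p below 0.05, 0 by DESeq2), all were below 0 with a median of -0.71 (log2), and the sums were 32.7 to 76.0 CPM at ZT6 and 25.1 to 36.9 CPM at ZT18. The highest sum of the macrophage and of the T and NK cell markers was in ZT6 replicate 3, the library with the highest interferon-stimulated sum. Their part in the changes above was not tested, and in bulk tissue fewer cells of a type and less RNA per cell cannot be told apart. Of 11 endothelial markers, with a median of 0.17, Emcn and Pecam1 were higher at ZT18 (0.70 and 0.33, log2), and of 10 stromal progenitor markers, with a median of -0.06, Ly6a and Icam1 were lower (-1.01 and -0.71), where 1.71% of all genes were higher and 2.53% lower. Pecam1 lost its call without any 1 of ZT18 replicates 2 to 4 or ZT6 replicates 2 to 4, Icam1 without ZT18 replicate 1 or ZT6 replicate 3, and Ly6a without ZT6 replicate 3. The B and plasma cell markers had a median of 0.42, with 6 of 8 above 0 and sums of 12.2 to 18.2 CPM at ZT6 and 14.3 to 36.9 CPM at ZT18, and the neutrophil and mast cell markers had 4 of 7 below 0. No B cell, neutrophil, mesothelial, red cell, skeletal muscle or germ cell marker was called (edgeR; of these, DESeq2 called 1 germ cell marker). Unadjusted p was below 0.05 for 2 of 8, 2 of 7, 1 of 10, 1 of 6, 1 of 13 and 6 of 7 of them. The summed germ cell markers were 68.3, 0.955, 5.41 and 28.1 CPM at ZT18 and 0.947 to 1.88 CPM at ZT6, and the epididymis markers 34.5, 21.7, 85.3 and 31.1 CPM at ZT18 and 18.04 to 27.9 CPM at ZT6. Of the epididymis markers Rnase10 was called (0.466, 0.251, 6.58 and 0.379 CPM at ZT18), and it lost its call without ZT18 replicate 3, at an adjusted p of 0.633, or without any 1 ZT6 library. One Schwann cell marker, Mbp, was higher by 0.52 and lost its call without ZT18 replicate 1 or 2 or ZT6 replicate 1, 2 or 4. Among the 8 adipocyte markers 7 were above 0, with a median of 0.255 (log2). None of them was called (edgeR; 3 at an unadjusted p below 0.05, 1 by DESeq2).

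Within the same limits on level and separation, the 10 protein-coding genes with the largest increase included several of carbohydrate and lipid handling. Ppp1r3b (chr8:35375739-35388139), which targets protein phosphatase 1 to glycogen, was at 81.1, 68.0, 89.9 and 92.4 CPM at ZT6 and 565, 526, 265 and 399 CPM at ZT18 in FANKO, a change of 2.40 ± 0.38 (log2, SE; adjusted p = 1.15e-05, edgeR). Ppp1r3c, another glycogen-targeting subunit, changed by 2.07 ± 0.24, and Angptl8, an insulin- and feeding-induced regulator of lipoprotein lipase, by 2.22 ± 0.48. The call of Angptl8 was lost with the epididymis covariate (adjusted p = 0.0155, edgeR). In WT these 3 genes were called higher too, at 3.47, 1.39 and 3.31 (log2), and no difference between the genotypes was called. Pgm3, a hexosamine pathway mutase, and its neighbour Rwdd2a lie side by side on opposite strands of chromosome 9 (chr9:86554377-86571842 and chr9:86571991-86574899). Pgm3 was at 12.1, 13.6, 16.2 and 16.3 CPM at ZT6 and 108, 137, 55.3 and 72.3 CPM at ZT18 in FANKO. It changed by 2.68 ± 0.43 and Rwdd2a by 3.51 ± 0.59 (log2, SE), and exons of Pgm3 overlap those of Dop1a over 1270 bases. In WT Pgm3 was at 12.5 to 15.1 CPM at ZT6 and at 40.1, 49.1, 41.2 and 16.4 CPM at ZT18. Fgf21, a fasting and stress hormone, was at 1.82, 1.89, 2.55 and 1.08 CPM at ZT6 and 14.4, 8.04, 4.95 and 6.32 CPM at ZT18 in FANKO, a change of 2.17 ± 0.41 (log2, SE; adjusted p = 0.000173, edgeR). All 8 WT libraries held at most 0.518 CPM of it. The difference of 1.48 ± 0.87 was not called (adjusted p = 0.487, edgeR).

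Smtnl2 (2.21) and Gprin2 (1.94) completed the 10 together with Nfil3 and Usp2. Gprin2 was at 0.894 to 1.38 CPM at ZT6 and 3.36 to 5.53 CPM at ZT18 in FANKO and at or under 0.307 CPM in WT, and its difference between the genotypes of 3.03 ± 0.78 was not called (log2, SE; adjusted p = 0.0336, edgeR). Of 33 genes of insulin action and glucose handling 4 were higher and 4 lower in FANKO, where 1.71% of all genes were higher and 2.53% lower. In WT 6 of the 33 were higher and 1 lower, where 2.21% of all genes were higher and 0.780% lower. In FANKO the hexokinase gene Hk2 (1.00) and the insulin receptor adaptor Grb10 (0.43) rose with the 2 glycogen subunits. Txnip, an arrestin that curbs glucose uptake, fell by 1.29, and the phosphofructokinase-2 genes Pfkfb1 and Pfkfb3 fell by 1.10 and 0.91 on the log2 scale. The FANKO call of Pfkfb3 was lost without any 1 of 6 libraries, which were ZT18 replicates 1, 2 and 4 and ZT6 replicates 1, 2 and 4 (adjusted p up to 0.0629, edgeR). It was also lost with library size alone as the scaling, in a fit of the compared libraries alone and with the epididymis covariate. Among stress genes Atf4 (0.74) and Herpud1 (0.79) rose with Fgf21 in FANKO, as 3 of 24 unfolded protein and ATF4 response genes. Of all genes 1.71% were called higher in FANKO, and in WT 2 of the 24 were called higher. Atf4 lost its FANKO call without ZT18 replicate 1 or 4 or ZT6 replicate 2, 3 or 4. Herpud1 lost its FANKO call without ZT18 replicate 1 or 4 or ZT6 replicate 3. Both genes also lost it with library size alone as the scaling. Of 20 glucocorticoid-responsive genes Tsc22d3 (1.28) and Fkbp5 (1.59) rose in FANKO, against the same 1.71% of all genes, and 2 were called higher in WT. Fkbp5 was not called in FANKO without ZT18 replicate 4 or ZT6 replicate 1 or 3.

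Angptl4 (chr17:33773750-33781830), a fasting-induced inhibitor of lipoprotein lipase, fell at ZT18 in FANKO eWAT and had one of the smallest p-values for the difference between the genotypes. It was at 656, 441, 357 and 459 CPM at ZT6 and 65.6, 53.9, 87.2 and 90.9 CPM at ZT18 in FANKO, and at 208, 246, 228 and 174 CPM at ZT6 and 240, 230, 235 and 362 CPM at ZT18 in WT. All WT libraries lay between the 2 FANKO groups except WT ZT18 replicate 4, which was above the lowest FANKO library at ZT6. The change was -2.68 ± 0.31 in FANKO (log2, SE; adjusted p = 2.19e-08, edgeR) and 0.32 ± 0.29 in WT (adjusted p = 0.562), and the difference was -3.00 ± 0.43 (adjusted p = 1.75e-05). Thbs1, a matrix glycoprotein, was at 755, 672, 764 and 580 CPM at ZT6 and 48.3, 37.0, 133 and 76.1 CPM at ZT18 in FANKO, a change of -3.24 ± 0.45. In WT it was at 223, 143, 197 and 86.8 CPM at ZT6 and 58.5, 76.7, 52.2 and 388 CPM at ZT18, with replicate 4 the highest. Its difference of -3.06 ± 0.60 was called (log2, SE; adjusted p = 0.00228, edgeR) but not without that replicate (-1.86, adjusted p = 0.0318), where the WT change was -1.38 (adjusted p = 0.0141). Fbn1, also of the matrix list, fell by 0.998 on the log2 scale in FANKO, and it lost its call without ZT18 replicate 1, 2 or 4 or ZT6 replicate 1 or 3. Of 35 matrix genes 3 were called in FANKO, all lower at ZT18, where 2.53% of all genes were lower. In WT 2 of the 35 were lower and 1 higher, where 0.780% of all genes were lower and 2.21% higher. The list median was -0.175 in FANKO and -0.248 in WT (log2).

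Several other genes fell in FANKO and had a positive change in WT by estimate. Rnf125, a ubiquitin ligase that acts on the RNA sensor RIG-I, was at 49.99, 51.8, 35.96 and 42.1 CPM at ZT6 and 19.3, 20.4, 23.9 and 17.8 CPM at ZT18 in FANKO, and at 16.4, 13.3, 18.9 and 22.3 CPM at ZT6 and 22.5, 25.6, 27.5 and 30.8 CPM at ZT18 in WT. It had the smallest p of all genes for the difference, -1.73 ± 0.23 (log2, SE; adjusted p = 7.75e-06, edgeR). Ifrd1, a transcriptional co-regulator, changed by -0.86 ± 0.14 in FANKO and 0.60 ± 0.14 in WT (log2, SE), both called. Irs3 (chr5:137643031-137645714), an insulin receptor substrate of rodent adipocytes, was at 49.2, 38.8, 28.1 and 40.8 CPM at ZT6 and 25.5, 23.1, 24.03 and 25.9 CPM at ZT18 in FANKO, and at 32.98, 23.6, 34.1 and 29.1 CPM at ZT6 and 41.4, 48.6, 57.4 and 51.8 CPM at ZT18 in WT. The changes of -0.67 ± 0.17 and 0.74 ± 0.17 differed by -1.41 ± 0.24 (log2, SE; adjusted p = 0.000627, edgeR). The FANKO change of Irs3 alone lost its call without any library but ZT6 replicate 3 (adjusted p up to 0.0666, edgeR). Ankef1, Dmrt2 and Cdr2 had differences of -1.12, -1.85 and -1.35 (log2), all called, and the FANKO change of Cdr2 lost its call without ZT18 replicate 1 or ZT6 replicate 1. Nmnat3 (chr9:98287435-98420438), the mitochondrial adenylyltransferase that turns the product of NAMPT into NAD, moved the other way. It was at 8.73, 11.9, 10.2 and 9.94 CPM at ZT6 and 19.2, 17.8, 14.1 and 14.5 CPM at ZT18 in FANKO, and at 11.99, 8.51, 11.2 and 14.6 CPM at ZT6 and 9.04, 8.01, 7.83 and 9.37 CPM at ZT18 in WT. Its changes of 0.68 ± 0.13 and -0.43 ± 0.14 differed by 1.11 ± 0.19 (log2, SE; adjusted p = 0.000603, edgeR). It was the only one of 25 NAD metabolism genes called in FANKO, which is near the 4.25% of all genes. In WT 3 of the 25 were called, all higher at ZT18, where 2.21% of all genes were called higher.

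**Figure D4:**
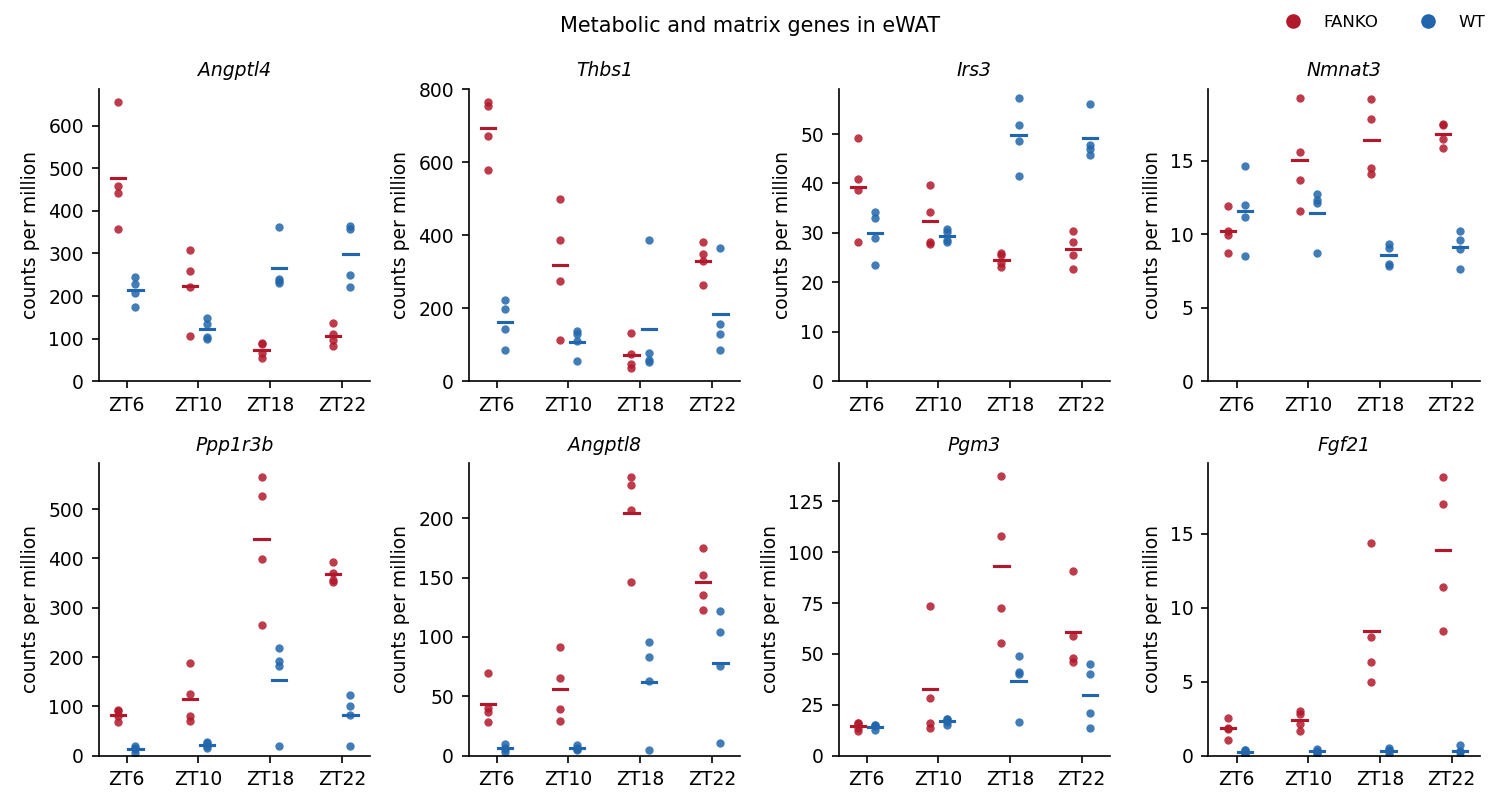
Level (CPM) of 8 metabolic and matrix genes at each time point in FANKO (red) and WT (blue) eWAT, with a point for each of 4 libraries and a bar at the mean. Angptl4 falls to 53.9 to 90.9 CPM at ZT18 in FANKO, and for Ppp1r3b, Angptl8, Pgm3 and Thbs1 a single WT library at ZT18 lies far from the other 3.

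In FANKO eWAT 1 gene of 4 lipid synthesis and oxidation lists was called, where 4.25% of all genes were called. For any 1 list of these sizes 0 or 1 call is near that share. Whether the 4 lists together fell below it was not tested. De novo lipogenesis had 0 of 21 genes called (edgeR; 2 at an unadjusted p below 0.05, 0 by DESeq2), cholesterol synthesis and uptake 0 of 30 (4, and 0 by DESeq2) and fatty acid oxidation 0 of 26 (8, and 1 by DESeq2). Their median changes were -0.02, 0.06 and 0.13 on the log2 scale. In WT 2, 5 and 3 genes of these lists were called, all higher at ZT18, with medians of 0.50, 0.34 and 0.32, where 2.21% of all genes were called higher. Without WT ZT18 replicate 4 these WT counts were 5, 9 and 2, with medians of 0.83, 0.55 and 0.30. Of 22 genes of triglyceride synthesis and storage 1 was called in FANKO, the phosphatidate phosphatase gene Lpin1 (0.71 ± 0.17, log2, SE), and 7 in WT, or 10 without WT ZT18 replicate 4. Lpin1 lost its FANKO call without ZT18 replicate 1 or 2 or ZT6 replicate 1, 3 or 4. The difference between the genotypes was called for 1 gene of these 4 lists, the lipid droplet coat gene Plin2, and at an unadjusted p below 0.05 for 3 of 21, 6 of 30, 3 of 26 and 8 of 22 genes. Of 21 lipolysis and lipid uptake genes Angptl8 was higher and Angptl4 and the beta-adrenergic receptor gene Adrb3 (-0.76 ± 0.19) were lower in FANKO. Adrb3 lost its call without ZT18 replicate 1, 2 or 4 or ZT6 replicate 1 or 4, and its exons overlap the antisense gene Gm45470 by 839 bases. Of 21 adipokine and adipocyte factor genes Npr3 (-1.03), the natriuretic peptide clearance receptor, and Angpt1 (-0.87) were lower. Npr3 lost its call without any 1 library but ZT18 replicate 3, and Angpt1 without ZT18 replicate 1. Npr3 also lost its call in a fit of eWAT alone and with the epididymis covariate.

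Of 31 heat shock and chaperone genes 4 were higher in FANKO eWAT, Hsph1 (1.00), Dnajb1 (0.73), Chordc1 (0.51) and Ahsa2 (0.46), and the cold-inducible Cirbp was lower (-0.65), where 1.71% of all genes were higher and 2.53% lower. Ahsa2 lost its call without ZT18 replicate 2 or 4 or ZT6 replicate 1, 2 or 3. Dnajb1 and Chordc1 lost theirs with library size alone as the scaling (adjusted p = 0.0106 and 0.0148, edgeR). In WT 13 were higher, against 2.21% of all genes, and Cirbp was lower, and no difference between the genotypes was called (edgeR; 12 of 31 at an unadjusted p below 0.05, 2 by DESeq2). Of 24 immediate early genes Egr1 (-1.44), Fos (-1.36), Junb (-1.27) and Zfp36 (-0.93) were lower and Jun (1.06) was higher in FANKO, and Egr1 and Junb were lower in WT too. Fos lost its call without ZT18 replicate 1, 3 or 4 or ZT6 replicate 1 or 3. Of 45 cell cycle genes 3 were called, which is near the 4.25% of all genes. E2f2 (1.19) and the clock output Wee1 (0.96) were higher and Ccnd1 (-0.82) was lower, the last not called without any 1 of the ZT18 libraries or ZT6 replicate 1 or 3. The call of E2f2 was lost in a fit of eWAT alone and with the epididymis covariate (adjusted p = 0.0101 and 0.0117, edgeR).

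**Figure D5:**
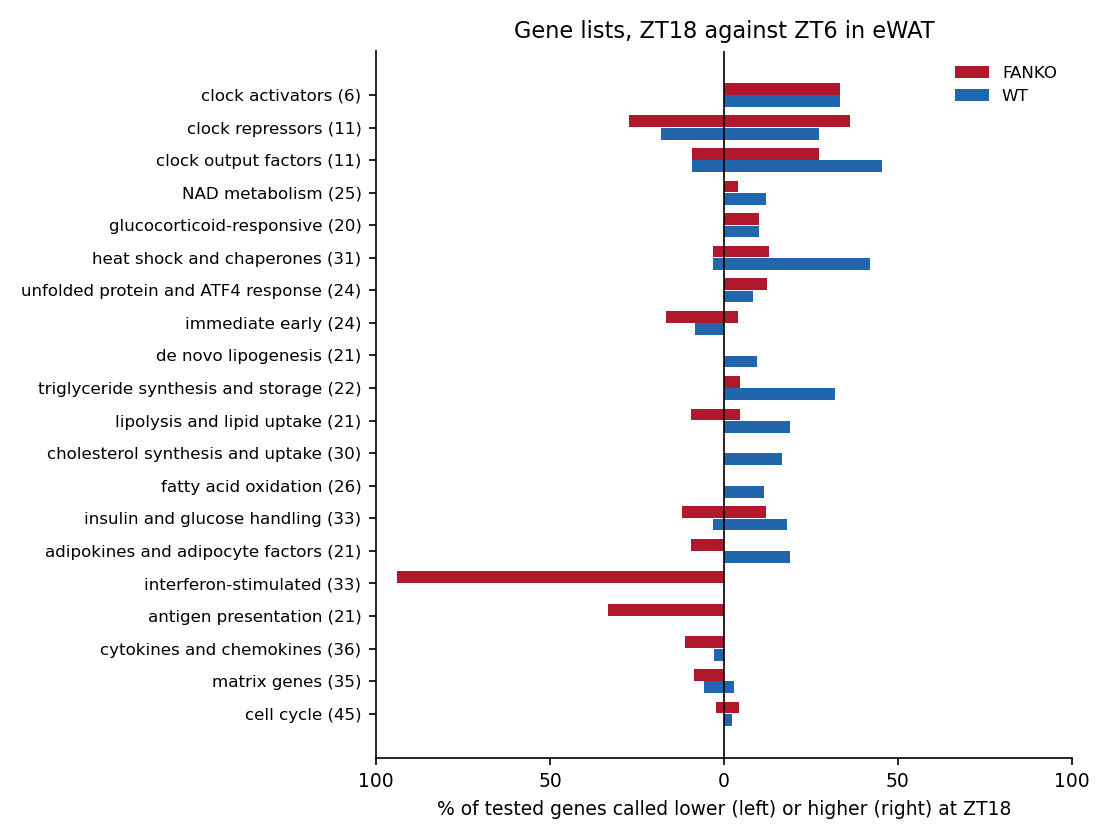
Share (%) of each list's tested genes, with their number in brackets, that were called higher (right) or lower (left) at ZT18 than at ZT6 in FANKO (red) and WT (blue) eWAT, 4 libraries per group. The interferon-stimulated list stands out with 31 of 33 genes lower in FANKO and none called in WT.

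At the other time points, where 1.19% of all genes were called higher at ZT22 than at ZT10 and 1.32% lower, the called genes were on the same side in part. Of the 347 genes higher at ZT18, 268 were higher at ZT22 than at ZT10 in FANKO eWAT by estimate and 62 were called so, with 2 called lower. Of the 513 lower, 304 were lower at ZT22 by estimate, 90 were called so and 3 were called higher. The time of the highest mean was in part fixed by the choice of genes, since ZT6 and ZT18 were used to choose them. The mean was highest at ZT18 for 285 of the 347 and at ZT22 for 56. Among the 513 it was highest at ZT6 for 434, at ZT10 for 61 and at ZT22 for 18. One FANKO library at ZT10, replicate 1, was nearer to the ZT18 mean than to the ZT6 mean for 61.1% of the 347 and 66.3% of the 513 genes. The other ZT10 libraries were so for 15.3 to 19.02% and 7.02 to 17.5%. That replicate also held Pgm3 at 73.5 CPM and Ppp1r3b at 187 CPM, against at most 28.1 and 124 CPM in the other ZT10 libraries.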

How the data were processed

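Total RNA of eWAT and BAT was sequenced on ribosomal-RNA-depleted stranded libraries as 38-base paired-end reads. Per the labels and the study's methods, the authors aligned reads with STAR 2.5.3a to GRCm38.p5 and made the deposited raw counts per gene with featureCounts 1.5.3, with no normalisation. The strand and multi-mapping options are not given in the sources used here. Symbols and exons came from GENCODE M21, which named 52489 identifiers. One edgeR 4.0.16 quasi-likelihood model (R 4.3.3) was fitted to all 64 libraries with 16 group means, TMM scaling and filterByExpr at a minimum count of 10 and a total of 15. P-values were Benjamini-Hochberg adjusted over 20249 genes, and an adjusted p below 0.01 was a call. CPM used TMM-scaled totals, and log2 CPM a prior count of 2. Samples were grouped by genotype, depot and time as labelled, with 4 animals each. Counts per library limit precision for genes of a few CPM. Named genes were the 10 protein-coding genes with the largest called increase, the 10 with the largest called decrease (mean log2 CPM of at least 1 and no overlap between groups), the 10 with the smallest p for the difference from WT, the clock genes with Nampt, and up to 6 called members of each list with the largest changes or those needed to state a small count. Predicted genes were counted but not named. The members, lists and tests were chosen with earlier results of these data known. Alternatives included DESeq2 1.42.0, limma-voom (limma 3.58.1), other filters, scalings and thresholds, covariates and leaving out each library, and the code was tested on simulated data. The labels do not say that replicate numbers mark a shared animal, litter or day. Some genes are not reported here.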

Additional observations from a re-analysis of the deposited data

Results flagged for a closer look

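Single libraries stood far from the other 3 of their group in 14 of 144 groups tested, where Dixon's ratio (the gap to the nearest library over the range of the group) passed its 95% critical value, which chance alone passes in about 1 in 20. WT eWAT ZT18 replicate 4 accounted for Per2 (0.955), Ppp1r3b (0.926), Angptl4 (0.904), Angptl8 (0.856) and Ifit3 (0.848). In FANKO eWAT the libraries were ZT18 replicate 3 for Nfil3 (0.951), ZT18 replicate 1 for Pfkfb1 (0.92), Slfn4 (0.863) and Dmrt2 (0.846), and ZT6 replicate 3 for the summed T and NK cell markers (0.846). In WT they were ZT6 replicate 2 for Usp2 (0.946), ZT6 replicate 1 for Pgm3 (0.861), ZT6 replicate 4 for Isg15 (0.847) and ZT18 replicate 2 for the summed germ cell markers (0.982).

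The ZT18 against ZT6 change differed between FANKO and WT eWAT for 67 genes by an interaction term (edgeR). As FANKO minus WT on the log2 scale, the called differences of named genes were -1.111 for Cry1, 1.66 for Dbp, -1.078 for Nampt, -3.064 for Thbs1, -3.293 for Ifit3, -3.404 for its near-identical copy Ifit3b and -2.51 for Ifit2. They were -3.004 for Angptl4, -1.732 for Rnf125, -1.458 for Ifrd1, -1.124 for Ankef1, -1.849 for Dmrt2, -1.354 for Cdr2, 1.109 for Nmnat3, -1.408 for Irs3 and -1.189 for Pfkfb1. Between FANKO eWAT and FANKO BAT the change differed for 218 genes, 30 of them interferon-stimulated.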

How the results depend on the processing

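The FANKO eWAT count of 860 called genes was 1670 at an adjusted p below 0.05, 508 with library size alone as the scaling and 322 without ZT18 replicates 1 and 4 (an alternative chosen after seeing the data), and leaving out 1 library gave 512 to 739. The WT count of 606 was 1659 at 0.05, 389 at 1.5-fold or more, 278 with library size alone, 6 in a fit of the compared libraries alone and 243 to 893 with 1 library left out. The 67 called differences between the genotypes became 244 at 0.05 and 154 by DESeq2. They became 33 with library size alone and 12 in a fit of the compared libraries alone. With the mean log2 CPM of the epididymis markers as a covariate they became 24. Without FANKO ZT18 replicates 1 and 4 they became 30, and with 1 library left out 43 to 169. The FANKO BAT count of 415 was 1184 at 0.05, 221 at 1.5-fold or more, 642 by DESeq2, 183 with library size alone (40 higher and 143 lower, against 237 and 178), 214 in a fit of BAT alone, 20 in a fit of the compared libraries alone and 138 to 787 with 1 library left out. The 218 differences between the depots became 468 at 0.05, 127 with library size alone, 138 in a fit of the compared libraries alone and 138 to 256 with 1 library left out. The ZT22 against ZT10 count of 508 was 969 at 0.05, 328 with library size alone (196 higher and 132 lower, against 241 and 267) and 302 to 455 with 1 library left out. Of the interferon-stimulated genes, the 31 lower in FANKO were 30 to 32 under the other planned settings and 25 to 31 with 1 library left out. The 9 with a called difference from WT became 20 at 0.05, 17 by DESeq2, 3 by limma-voom, 4 with library size alone, 2 in a fit of eWAT alone, 0 in a fit of the compared libraries alone, 4 with robust dispersion, 3 with the epididymis covariate, 1 without FANKO ZT18 replicates 1 and 4, and 2 to 13 with 1 library left out. The Nampt difference at ZT6 was -0.3031 with library size alone (exact permutation p = 0.0286). The FANKO change of Nampt, near 0 throughout, turned positive without the filter (0.0061), in a fit of the compared libraries alone (0.0027), without mitochondrial genes (0.0017) and without ZT18 replicate 1 (0.0018), ZT18 replicate 2 (0.0262) or ZT6 replicate 3 (0.0254), with a range of -0.0451 to 0.0262 when 1 library was left out. The cause of these shifts was not tested. With the replicate block the FANKO count was 897, with 844 genes shared, and Rnase10 lost its call. Same-numbered FANKO libraries correlated at 0.071, 0.387, 0.075 and 0.05 in their deviations from the group means, and of these 4 ZT6 libraries only replicate 2 matched its own number best. In WT eWAT the correlations were 0.045, 0.179, 0.255 and 0.129, with replicates 2, 3 and 4 matching their own number best, and replicate 4 had the highest share of mitochondrial counts in 7 of 8 eWAT groups. Since not every pair passed 0.1 the numbers were not taken as pairs, and whether they mark something shared was not tested. The block gave 670 in WT and 73 for the difference, within 1.5 times the counts without it. Over the called named genes, 1007 of 1115 values under settings other than a left-out library kept direction and call. With a library left out 519 of 640 did, and the other values of both kinds kept direction only. The 1115 include values with a prior count of 0.5, for which direction alone was compared. Of the 80 called named genes 34 were called under every setting. Depth limits the precision of low genes such as Il6, which had 0.794 CPM or less.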

Other observations

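In FANKO BAT 21 of the 31 heat shock and chaperone genes were called higher at ZT18 than at ZT6 and 2 lower (edgeR), with a median change of 0.64 on the log2 scale. Of all genes 2.05% were called in either direction, 237 higher and 178 lower. In a fit of the compared libraries alone all FANKO BAT calls numbered 20, of which 16 were higher, so most of these calls depended on the shared fit. How many of the 21 were kept under other settings was not counted. In FANKO eWAT the median of the same list was 0.08, and the difference between the depots was called for 4 of the 31. Between ZT22 and ZT10 in FANKO eWAT 6 of 24 unfolded protein and ATF4 response genes were called higher and none lower, where 2.51% of all genes were called. Fgf21, a target of ATF4, was at 11.4, 18.8, 8.40 and 17.01 CPM at ZT22 and 2.14, 1.67, 2.99 and 2.81 CPM at ZT10 in FANKO.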
